A study of Mus musculus with 20 samples.

Results

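Immediate early genes are transcribed within minutes of a growth or stress signal, without new protein synthesis. The values of 10 of them were followed through all 20 RNA sequencing samples of a study of cathepsin D (CTSD), an aspartic protease of the lysosome, in the PyMT mouse model of breast cancer. They were the FOS family members Fos, Fosb and Fosl1, the JUN family members Jun and Junb, and Atf3, Egr1, Ier2, Dusp1 and Myc, chosen by name among the 45706 Ensembl gene identifiers in the count files. Each symbol was tied to 1 identifier, and all 10 genes passed the filter on low counts in both materials, which left 18617 genes tested in tumors and 15178 in cells.

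The 6 groups differed in material, genotype and culture time. The 4 control tumors and the 4 MMTV-cre;Ctsd-/- tumors were taken from mice of 18 weeks. The MMTV promoter, which is active mainly in mammary epithelium, drove both the PyMT oncogene and, in the deficient mice, the cre recombinase that removed Ctsd. The deletion was thus aimed at the epithelium, and the paper holds that CTSD left in these tumors probably came from stromal cells. All mice were kept on a C57BL/6 N background. The control mice are labelled wild type for CTSD, and per the study's methods control tumors could carry wild-type or unrecombined floxed alleles. The cells were spontaneously immortalized PyMT tumor cells, 1 line from a Ctsd+/+ mouse and 1 line from an MMTV-cre;Ctsd-/- mouse, kept in medium with 1% fetal calf serum (FCS) for 10 days (1% FCS) or for 12 weeks (1% FCS LT), with 3 samples in each of the 4 groups. Replicates of a cell group are therefore samples of a single line, and a difference between genotypes cannot be told apart from a difference between these 2 lines.

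Gene counts per library ranged from 49725437 to 64291587 in tumors and from 33622831 to 40239762 in cells, and levels are given as CPM, counts scaled to library size, after TMM normalization within each material. Ctsd itself lay between 1781 and 2617 CPM in control tumors and between 360 and 1295 CPM in MMTV-cre;Ctsd-/- tumors. It lay between 1267 and 4199 CPM in Ctsd+/+ cells and between 114 and 192 CPM in Ctsd-/- cells. The 1% FCS Ctsd+/+ cells stood apart from the other cells in their markers. Their 7 fibroblast markers (Col1a1, Col1a2, Col3a1, Dcn, Lum, Pdgfra and Pdgfrb) summed to 1178 to 3310 CPM, with Lum at 0, against 3.05 to 99.8 CPM in the other 3 cell groups, of which 1% FCS Ctsd-/- cells had Dcn and Lum at 0. Their 6 luminal epithelial markers (Epcam, Krt8, Krt18, Krt19, Cdh1 and Elf5) summed to 878 to 1692 CPM, against 4285 to 10110 CPM elsewhere in the cells. The labels also carry a number after the letters LR, whose meaning they do not give. All control tumors share 1 such number and all MMTV-cre;Ctsd-/- tumors another, so that LR number and genotype cannot be told apart there. In cells, 8 samples share an LR number, while replicate 1 of both genotypes in 1% FCS and replicate 3 of both genotypes in 1% FCS LT carry numbers of their own.

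In the textbook pathway, growth factor receptors and the RAS and ERK kinases activate ternary complex factors and serum response factor at promoters of genes such as Fos and Egr1, while CREB acts through cyclic AMP response elements (CREs). FOS and JUN proteins pair as AP-1, which binds the DNA of many genes for proliferation, invasion and matrix turnover. DUSP1 dephosphorylates p38, JNK and ERK and so closes a feedback loop, and the polyoma middle T antigen of PyMT tumors signals into the same cascades through SRC, SHC and PI3K.

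Promoters are shown for the members whose genotype differences, given below, ran in opposite directions. RefSeq promoters on GRCm38.p6 were at hand for 6 of the 10 genes, Fos, Fosb, Jun, Junb, Atf3 and Dusp1. The 250 bases before the RefSeq transcript start are shown 5′ to 3′ for Fos (chr12:85473640-85473889, plus strand) and Dusp1 (chr17:26508473-26508722, minus strand), which were lower in Ctsd-/- cells in both cultures, for Fosb (chr7:19310046-19310295, minus strand), which was higher in both, and for Atf3 (chr1:191183334-191183583, minus strand), which was higher in 1% FCS. Capitals mark matches to any motif searched.
Fos: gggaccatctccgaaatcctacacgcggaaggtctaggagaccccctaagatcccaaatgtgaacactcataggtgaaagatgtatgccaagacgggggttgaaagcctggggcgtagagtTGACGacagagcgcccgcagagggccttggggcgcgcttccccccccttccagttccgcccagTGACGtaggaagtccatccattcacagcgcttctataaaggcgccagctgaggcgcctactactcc
Dusp1: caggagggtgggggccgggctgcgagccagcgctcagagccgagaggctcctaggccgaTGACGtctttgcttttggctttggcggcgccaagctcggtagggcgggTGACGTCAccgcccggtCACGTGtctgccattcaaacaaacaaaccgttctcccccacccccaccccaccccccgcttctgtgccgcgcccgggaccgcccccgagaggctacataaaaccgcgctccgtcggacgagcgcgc
Fosb: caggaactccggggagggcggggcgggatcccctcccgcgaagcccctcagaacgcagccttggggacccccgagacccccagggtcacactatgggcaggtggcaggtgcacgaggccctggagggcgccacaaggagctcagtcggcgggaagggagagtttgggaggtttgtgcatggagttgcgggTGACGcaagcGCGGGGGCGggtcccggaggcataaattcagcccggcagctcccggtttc
Atf3: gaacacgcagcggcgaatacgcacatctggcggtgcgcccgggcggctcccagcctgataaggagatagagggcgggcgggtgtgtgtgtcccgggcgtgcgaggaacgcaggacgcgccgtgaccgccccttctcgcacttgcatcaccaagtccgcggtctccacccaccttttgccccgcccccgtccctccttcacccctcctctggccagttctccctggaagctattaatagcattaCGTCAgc

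Matches on either strand were counted for TGACGTCA (full CRE), TGACG (CRE core, which every full CRE also holds), TGANTCA (AP-1 site), CACGTG (E-box), GCGNGGGCG (EGR site), CCGGAAG (ETS core) and the CArG box bound by serum response factor. A CRE core stood in 5 of the 6 promoters, those of Fos, Fosb, Junb, Atf3 and Dusp1, against 17.8% of all 32851 RefSeq promoters of the same length. Fos held it with its first base 66 and 129 bases before the start, Fosb 60 bases before it, and Atf3 on the opposite strand 7 bases before it. Dusp1 was the single one of the 6 with a full CRE, 143 bases before the start (1.55% of all promoters), and with an E-box (6.02%). Fosb was the single one with an EGR site, 50 bases before the start (4.7%). None of the 6 held the letters of the AP-1 site (6.75% of all promoters), the ETS core (6.91%) or the CArG box (1.47%) in these 250 bases. Bases farther upstream were not searched, nor was a promoter of Egr1, so the search cannot say whether these genes have such sites elsewhere. Variants of the searched letters, such as the TGACATCA that stands in the Jun promoter, were not counted. The CRE core was thus found both in members that were lower and in members that were higher in Ctsd-/- cells. These are matches of letters only.

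The first comparison asked how the genotypes differed after 10 days in 1% FCS. Of the 10 genes, 4 were lower in Ctsd-/- than in Ctsd+/+ cells (Fos, Jun, Egr1 and Dusp1) and 2 were higher (Fosb and Atf3), while 25.1% of all 15178 genes tested were called lower and 23.5% higher at an adjusted p under 0.05. The same 6 genes had groups that did not overlap, as did 55.2% of all genes. After 12 weeks, 5 members were lower in 1% FCS LT Ctsd-/- cells (Fos, Junb, Egr1, Ier2 and Dusp1) and 1 was higher (Fosb), against 19.1% and 20.5% of all genes. There 6 members did not overlap between genotypes (Fos, Fosb, Fosl1, Junb, Egr1 and Dusp1), against 54.2% of all genes. Fos, Fosb, Egr1 and Dusp1 were thus called the same way in both cultures, 4 members were called in 1 culture, and Fosl1 and Myc were called in none of the 6 comparisons. The matching shares of all genes were not counted, so these counts are not read as a trait of the members. The median absolute log2 FC of the 10 members was 1.18 in 1% FCS, where that of all genes was 0.50, and 0.63 in 1% FCS LT, where that of all genes was 0.42. The median signed log2 FC was 0.09 and -0.36, against 0.00 and 0.01 for all genes.

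**Figure D1:**
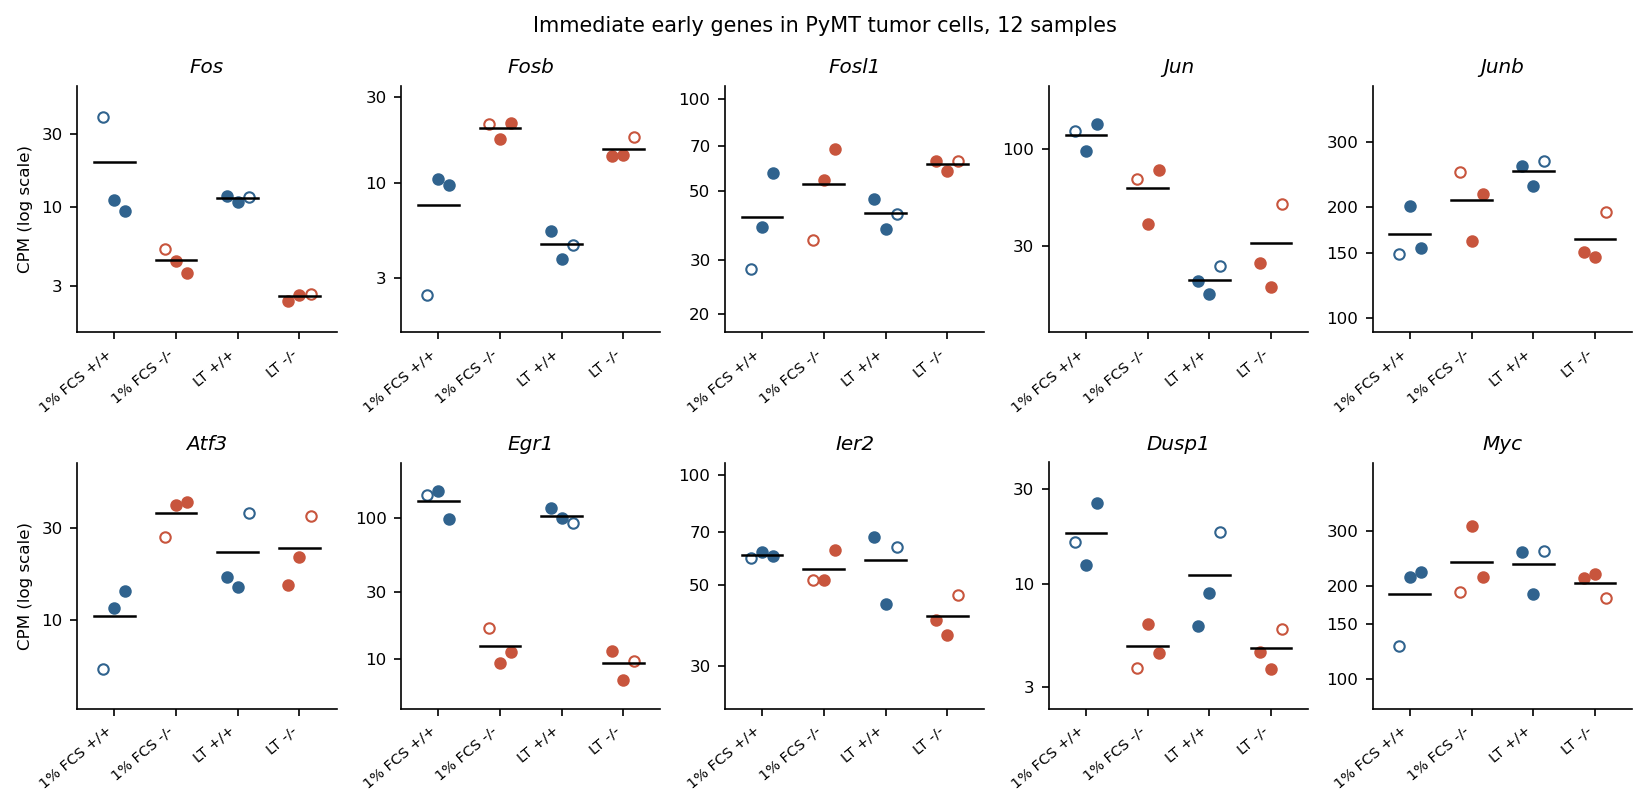
Level of each immediate early gene in the 12 cell samples, as TMM-scaled CPM on a log axis, with Ctsd+/+ cells in blue, Ctsd-/- cells in red and a black line at the mean of 3 samples (LT, 1% FCS LT). Open circles are the samples with their own LR number, replicate 1 in 1% FCS and replicate 3 in 1% FCS LT. Egr1 and Fos are lower in all 6 Ctsd-/- samples than in all 6 Ctsd+/+ samples, and Fosb is higher.

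Egr1, a zinc finger transcription factor that responds to serum and to ERK signaling, had the widest gap. After 10 days Ctsd+/+ cells held 144, 153 and 97.8 CPM and Ctsd-/- cells 16.6, 9.37 and 11.2 CPM. After 12 weeks Ctsd+/+ cells held 118, 99.4 and 92.2 CPM and Ctsd-/- cells 11.5, 7.16 and 9.77 CPM. Every Ctsd-/- sample lay far below every Ctsd+/+ sample, and within each genotype the culture times overlapped. This was a 10.6-fold lower level after 10 days (log2 FC -3.41, SE 0.257, adjusted p = 1.33e-06) and a 10.9-fold lower level after 12 weeks (-3.44, SE 0.258, adjusted p = 2.17e-06).

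Fos encodes the FOS subunit of AP-1, the classic serum-induced member of the family. Its level after 10 days was 39.1, 11.1 and 9.37 CPM in Ctsd+/+ samples against 5.23, 4.35 and 3.67 CPM in Ctsd-/- samples. Its level after 12 weeks was 11.7, 10.8 and 11.6 CPM against 2.37, 2.63 and 2.66 CPM. Replicate 1 of the 1% FCS Ctsd+/+ cells stood far above the other 2, and Ctsd-/- cells were lower in each culture with no overlap. The log2 FC of Fos was -2.16 after 10 days (SE 0.444, adjusted p = 0.0018) and -2.15 after 12 weeks (SE 0.45, adjusted p = 0.0026). Leaving that replicate out brought the first value to -1.21 (adjusted p = 0.000359).

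Fosb, whose product also pairs with JUN proteins, went the other way. Ctsd+/+ samples held 2.40, 10.5 and 9.74 CPM after 10 days, where Ctsd-/- samples held 21.3, 17.5 and 21.5 CPM. The values after 12 weeks were 5.46, 3.81 and 4.56 CPM and 14.2, 14.3 and 18.1 CPM. All Ctsd-/- samples lay above all Ctsd+/+ samples. Fosb was 2.66-fold higher after 10 days (log2 FC 1.41, SE 0.397, adjusted p = 0.0115) and 3.37-fold higher after 12 weeks (1.75, SE 0.403, adjusted p = 0.00476). Leaving out replicate 1 of the 1% FCS Ctsd+/+ cells, the lowest of its group, brought the first Fosb value to 0.99 (adjusted p = 0.00163). Fosl1, which encodes FRA-1, the FOS family member associated with invasive breast cancer cells, ranged from 27.9 to 57.3 CPM in Ctsd+/+ and from 34.6 to 68.6 CPM in Ctsd-/- cells after 10 days. Its ranges after 12 weeks, 37.7 to 47.3 and 58.1 to 62.9 CPM, did not overlap, and the log2 FC of 0.53 (SE 0.26) had an adjusted p of 0.127. It was called (log2 FC 0.51, adjusted p = 0.00716) when the 2 groups were fitted alone.

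Jun, the main JUN subunit of AP-1 and a target of JNK, held 125, 96.8 and 136 CPM in Ctsd+/+ samples after 10 days and 68.5, 39.02 and 77.2 CPM in Ctsd-/- samples. All 3 Ctsd-/- samples were lower (log2 FC -0.95, SE 0.346, adjusted p = 0.0384). Jun held 19.4, 16.3 and 23.3 CPM and 24.1, 18.0 and 50.5 CPM after 12 weeks, groups that overlapped (log2 FC 0.65, SE 0.349, adjusted p = 0.162). Without the highest of these samples, replicate 3 of the Ctsd-/- cells, the log2 FC was 0.10 (adjusted p = 0.807). The call after 10 days ended when replicate 1 or 3 of the Ctsd+/+ cells or replicate 1 or 2 of the Ctsd-/- cells was left out (adjusted p 0.0619 to 0.138).

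Junb, a JUN family member that activates fewer growth genes than JUN and can oppose it, overlapped between genotypes after 10 days (149 to 201 CPM in Ctsd+/+ and 162 to 248 CPM in Ctsd-/- cells). Its log2 FC of 0.31 (adjusted p = 0.158) was 0.47 without replicate 2 of the Ctsd-/- cells (adjusted p = 0.0435). After 12 weeks its level was 258, 227 and 266 CPM in Ctsd+/+ and 151, 146 and 194 CPM in Ctsd-/- samples. The Ctsd-/- samples were all lower (log2 FC -0.61, SE 0.174, adjusted p = 0.0151). Without replicate 1 or replicate 2 of the 1% FCS LT Ctsd-/- cells the adjusted p of Junb was 0.0549 or 0.065, and 3 members (Fosb, Fos and Egr1) were called in place of 6.

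Atf3, a bZIP factor of the ATF family that is induced by many stresses, held 5.55, 11.6 and 14.2 CPM in Ctsd+/+ samples after 10 days, where Ctsd-/- samples held 27.0, 39.8 and 41.1 CPM. All Ctsd-/- samples were higher, by 3.44-fold (log2 FC 1.78, SE 0.425, adjusted p = 0.00467). The genotypes overlapped almost fully after 12 weeks, at 16.8, 14.8 and 36.1 CPM in Ctsd+/+ and 15.2, 21.3 and 34.6 CPM in Ctsd-/- cells (log2 FC 0.07, SE 0.411, adjusted p = 0.909).

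Dusp1, which encodes a MAPK phosphatase, showed 16.2, 12.5 and 25.7 CPM in Ctsd+/+ and 3.72, 6.24 and 4.46 CPM in Ctsd-/- samples after 10 days. After 12 weeks it showed 6.08, 8.95 and 18.2 CPM and 4.501, 3.71 and 5.90 CPM. The genotypes were well apart at the first time and only just apart at the second. Dusp1 was 3.77-fold lower after 10 days (log2 FC -1.91, SE 0.401, adjusted p = 0.00206) and 2.35-fold lower after 12 weeks (-1.23, SE 0.395, adjusted p = 0.0267). Leaving out replicate 3 of the 1% FCS LT Ctsd+/+ cells brought the second value to -0.68 (adjusted p = 0.146), and leaving out replicate 1 or 2 of the 1% FCS LT Ctsd-/- cells also ended the call (0.0721 and 0.0967).

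Ier2, a short nuclear protein that serum induces, was within 44.4 to 67.8 CPM in both groups of Ctsd+/+ cells and in 1% FCS Ctsd-/- cells. It held 40.03, 36.5 and 46.8 CPM in 1% FCS LT Ctsd-/- cells. Its genotype log2 FC after 12 weeks was -0.51 (SE 0.155, adjusted p = 0.0205), although replicate 2 of the Ctsd+/+ cells (44.4 CPM) lay within the range of the Ctsd-/- cells. The call ended when any 1 of 4 of the 6 samples was left out, replicates 1 and 3 of the Ctsd+/+ cells and replicates 1 and 2 of the Ctsd-/- cells (adjusted p 0.0605 to 0.0909). Myc, the bHLH factor of cell growth and ribosome synthesis, ranged from 128 to 312 CPM over the 12 samples with all 4 groups overlapping, at a log2 FC of 0.35 after 10 days (SE 0.228, adjusted p = 0.231) and -0.20 after 12 weeks (SE 0.228, adjusted p = 0.521).

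Markers of cell type moved with the genotype comparison after 10 days. All 5 fibroblast markers that passed the filter were called lower in Ctsd-/- cells (summed 5.04 to 11.9 CPM, against 1178 to 3310 CPM in Ctsd+/+ cells), and all 5 luminal epithelial markers that passed were called higher. After 12 weeks the fibroblast markers summed to 3.05 to 8.37 CPM in Ctsd+/+ and 9.51 to 99.8 CPM in Ctsd-/- cells, 2 of the 5 tested were called higher in Ctsd-/- cells, and 1 luminal marker was called higher and 1 lower out of 5. Basal epithelial markers (Krt5, Krt14, Krt17, Trp63 and Acta2) had a lower sum in Ctsd-/- cells at both times, though the single markers did not all follow it. They summed to 45.2 to 101.5 CPM in Ctsd+/+ and 5.69 to 8.34 CPM in Ctsd-/- cells after 10 days, with Acta2 at 0 in the latter, and to 18.7 to 76.6 CPM and 3.87 to 5.46 CPM after 12 weeks, with 3 lower and 1 higher and then 1 lower among the 4 tested. The part of these markers in the member differences was not tested. Fewer cells of a type and less RNA per cell cannot be told apart in these bulk samples.

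**Figure D2:**
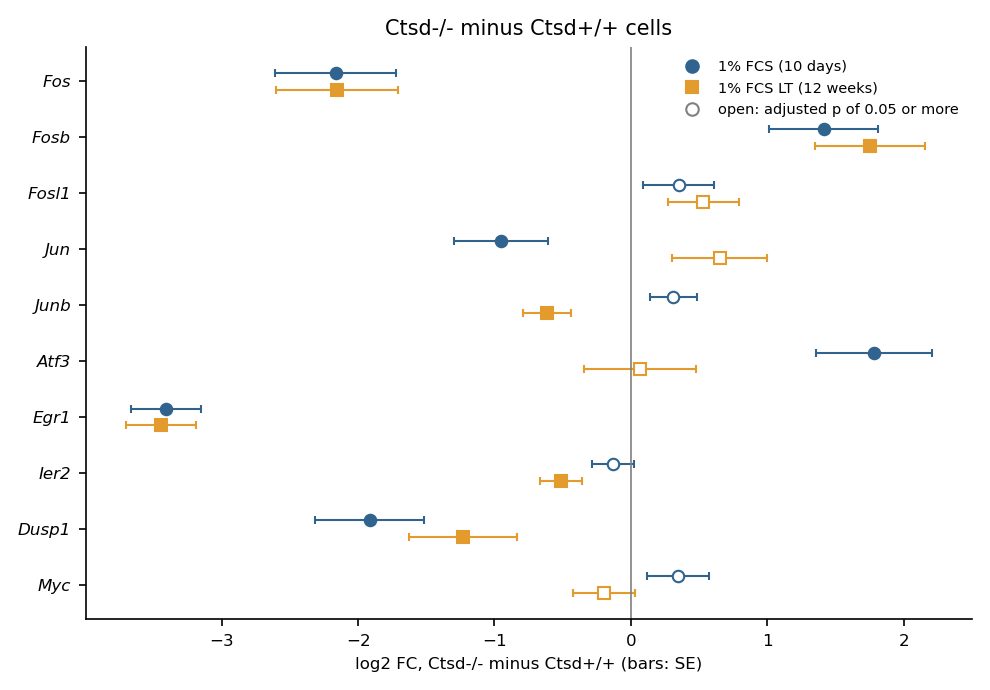
Log2 FC between genotypes, Ctsd-/- minus Ctsd+/+ cells, for each immediate early gene in 1% FCS (circles, 10 days) and 1% FCS LT (squares, 12 weeks), with bars of 1 SE from the fit over 12 samples and open symbols where the adjusted p was 0.05 or more. Egr1 lies at -3.41 and -3.44 in the 2 cultures, while Atf3 is at 1.78 in 1% FCS and 0.07 in 1% FCS LT.

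The next comparisons asked what 12 weeks in place of 10 days in 1% FCS did to each line. In Ctsd+/+ cells Jun was lower and Junb and Atf3 were higher in 1% FCS LT, 1 member and 2 members, where 23.4% and 23.0% of all genes were called lower and higher. These 3 members were also those whose groups did not overlap, as in 53.7% of all genes. Jun had the widest change, from 125, 96.8 and 136 CPM to 19.4, 16.3 and 23.3 CPM, a 6.07-fold fall in which all samples separated (log2 FC -2.60, SE 0.365, adjusted p = 0.000142). Junb rose by a log2 FC of 0.57 (SE 0.174, adjusted p = 0.0177) and Atf3 by 1.11 (SE 0.42, adjusted p = 0.0477).

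Single samples decided several of these values. The Atf3 call ended without replicate 3 of the 1% FCS LT group (0.60, adjusted p = 0.246), without replicate 1 or 2 of the 1% FCS group (0.80 and 1.19, adjusted p = 0.143 and 0.0779), under limma-voom (0.0681) and when the 2 groups were fitted alone (0.0837). The Junb call ended without replicate 1 or 3 of the 1% FCS group or replicate 3 of the 1% FCS LT group (adjusted p = 0.062, 0.052 and 0.0523). Fosb, at -0.71 with all samples (adjusted p = 0.167), was called at -1.14 without replicate 1 of the 1% FCS group (adjusted p = 0.000623). Dusp1, also at -0.71 (adjusted p = 0.153), was called at -1.27 without replicate 3 of the 1% FCS LT group (adjusted p = 0.0144). Fos moved from -0.80 (adjusted p = 0.144) to 0.15 without replicate 1 of the 1% FCS group (adjusted p = 0.549) and to -1.14 without its replicate 3 (adjusted p = 0.0304). Jun was called whichever sample was left out. In a fit over the 8 samples that share an LR number Jun, Fosb and Dusp1 were called lower and no member higher. The same contrast holds the fall in summed fibroblast markers from 1178 to 3310 CPM to 3.05 to 8.37 CPM, whose part in these results was not tested.

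In Ctsd-/- cells edgeR called none of the 10 members over the same time, while it called 1.57% of all genes higher and 0.810% lower. DESeq2 and limma-voom called none of the 10 either. At an unadjusted p under 0.05 there were 2, Jun and Ier2. The share of all genes at that unadjusted p was not counted for this comparison. The log2 FC lay below 0 for 9 of the 10, with a median of -0.38 against 0.00 over all genes. Jun went from 68.5, 39.02 and 77.2 CPM to 24.1, 18.0 and 50.5 CPM, and replicate 3 of the second group overlapped the first (log2 FC -0.996, SE 0.348, adjusted p = 0.159). Without that replicate Jun was called, at -1.55 (adjusted p = 0.0216). It was also called in a fit with the replicate number as a block, at -1.053 (adjusted p = 0.0298). Fos and Ier2 did not overlap between culture times, 2 of 10 members against 25.4% of all genes, at log2 FC of -0.79 (SE 0.443, adjusted p = 0.383) and -0.42 (SE 0.155, adjusted p = 0.177).

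**Figure D3:**
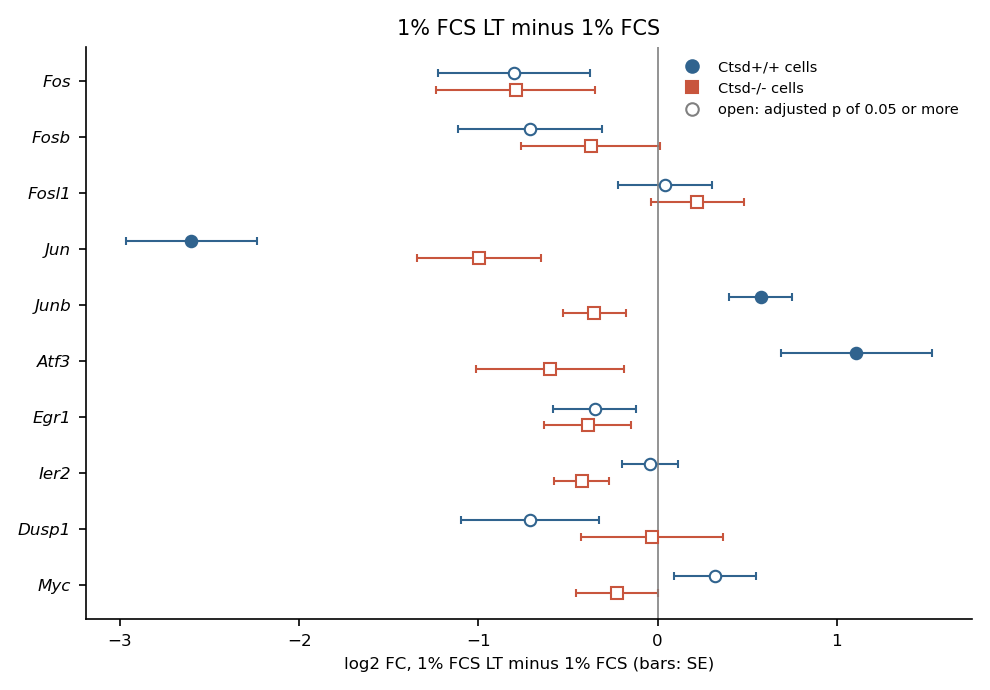
Log2 FC between culture times, 1% FCS LT minus 1% FCS, for each immediate early gene in Ctsd+/+ cells (blue circles) and Ctsd-/- cells (red squares), with bars of 1 SE and open symbols where the adjusted p was 0.05 or more. In Ctsd+/+ cells Jun is at -2.60 and Atf3 at 1.11, and in Ctsd-/- cells 9 of 10 points lie left of 0 with none called.

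The corrected comparison tested whether the genotype difference itself differed between culture times, as the log2 FC in 1% FCS LT minus that in 1% FCS. It was above 0 and called for Jun (1.61, SE 0.491, adjusted p = 0.0281) and below 0 and called for Junb (-0.93, SE 0.246, adjusted p = 0.0145) and Atf3 (-1.71, SE 0.587, adjusted p = 0.0455), 1 and 2 members where 16.1% and 14.1% of all genes were called in these directions. For Jun the Ctsd-/- cells went from below the Ctsd+/+ cells to overlapping them, for Junb from overlapping to below, and for Atf3 from above to overlapping. The call for Junb held whichever sample was left out. Those for Jun and Atf3 did not. Jun was at 1.05 without replicate 3 of the 1% FCS LT Ctsd-/- cells (adjusted p = 0.0512), and its call also ended without any 1 of 4 other samples (adjusted p 0.0504 to 0.0682). The Atf3 call ended without any 1 of 7 samples (adjusted p 0.0637 to 0.118). Without replicate 2 of the 1% FCS Ctsd-/- cells only Junb was called. For Egr1 (-0.04, SE 0.334, adjusted p = 0.949) no difference between culture times was detected. Fosb, at 0.34 (SE 0.554, adjusted p = 0.687), was called at 0.76 without replicate 1 of the 1% FCS Ctsd+/+ cells (adjusted p = 0.0422). The value of Fos, 0.01 (SE 0.651, adjusted p = 0.999), rested on replicate 1 of the 1% FCS Ctsd+/+ cells and was -0.94 (adjusted p = 0.0179) without it. All 12 samples enter this comparison, so that it shares them with the 4 above.

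The samples with their own LR number took the same place in both genotypes for several members. With 3 samples in a group some members do so by chance, and the share of all genes was not counted. Replicate 3 in 1% FCS LT was the highest of 3 in both Ctsd+/+ and Ctsd-/- cells for 4 members, Jun, Junb, Atf3 and Dusp1, and the lowest in both for none. Replicate 1 in 1% FCS was the highest in both for Fos and the lowest in both for 3 members, Fosl1, Atf3 and Myc. Within the 8 samples that share an LR number, Egr1, Fos, Dusp1, Jun, Fosb and Atf3 were called between genotypes in 1% FCS, the same 6 genes as over 12 samples. Of the genes called after 12 weeks, Fosb, Fos, Junb and Egr1 remained there, while Dusp1 (-0.87, adjusted p = 0.1) and Ier2 (-0.55, adjusted p = 0.0571) were not.

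Per kilobase of exon, Junb and Myc stood highest among the members in every cell group, at 71.1 to 109 CPM per kb and 69.1 to 87.9 CPM per kb as group means. Fosb was the lowest in Ctsd+/+ cells, at 1.21 CPM per kb in 1% FCS and 0.74 CPM per kb in 1% FCS LT. In Ctsd-/- cells the lowest were Dusp1 in 1% FCS (1.45 CPM per kb) and Fos in 1% FCS LT (1.09 CPM per kb). Egr1, at 29.3 CPM per kb in 1% FCS Ctsd+/+ cells, was at 2.11 CPM per kb in 1% FCS LT Ctsd-/- cells. In the order of group means, Egr1 and Fos ran from 1% FCS Ctsd+/+ through 1% FCS LT Ctsd+/+ and 1% FCS Ctsd-/- to 1% FCS LT Ctsd-/- cells. For Egr1 the single gap without overlap was between the genotypes, with an 8.32-fold step between 1% FCS LT Ctsd+/+ and 1% FCS Ctsd-/- cells. For Myc and Fosl1 every pair of neighbors in the order overlapped.

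Genes outside the 10 were read from lists of the same pathway, beside the 23.5% of all genes called higher and 25.1% called lower in Ctsd-/- cells after 10 days and the 20.5% and 19.1% after 12 weeks. Of 40 other immediate early genes, 9 stood higher and 17 lower in Ctsd-/- than in Ctsd+/+ cells after 10 days, and 10 higher and 10 lower after 12 weeks, with a median log2 FC of -0.02 and -0.13 beside the 0.00 and 0.01 of all genes. Ptgs2, the inducible cyclooxygenase, was at 219 to 703 CPM in 1% FCS Ctsd+/+ and at 0.027 to 0.195 CPM in 1% FCS Ctsd-/- cells, and at 236 to 594 CPM against 0.026 to 0.168 CPM in 1% FCS LT. Egr3, a relative of Egr1, was at 5.81 to 26.4 CPM against 0.082 to 0.170 CPM in 1% FCS. Cxcl1, a neutrophil chemokine, and Ccn1, a secreted matrix protein, led the culture time comparison of Ctsd+/+ cells, in which 6 genes of this list were higher and 12 lower (23.0% and 23.4% of all genes), at log2 FC of 3.47 (SE 0.552) and -4.08 (SE 0.326). Over the same time in Ctsd-/- cells edgeR called none of the 40. At an unadjusted p under 0.05 there were 11, without a counted share of all genes to set beside them.

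Upstream of the members, 7 of 19 genes of the ERK cascade stood higher and none lower in Ctsd-/- cells after 10 days, and 6 higher and 2 lower after 12 weeks (median log2 FC 0.15 and 0.21). The kinase scaffold Ksr1 (log2 FC 3.91, SE 0.33) and the ribosomal S6 kinase Rps6ka2 (2.77, SE 0.254) led in 1% FCS LT. Of 18 other MAPK phosphatases and ERK feedback inhibitors, 17 were tested, 7 were higher in 1% FCS and 8 in 1% FCS LT, and none was called lower in either culture, where Dusp1 was lower (median 0.44 and 0.54). Dusp7 (2.07, SE 0.158) and Dusp9 (2.05, SE 0.47), both phosphatases of ERK, led in 1% FCS, and Spred3 (2.61, SE 0.23) and Dusp5 (1.09, SE 0.396) in 1% FCS LT. Among 7 genes of serum response factor and its partners, 2 were higher and 2 lower in 1% FCS, and 4 were higher in 1% FCS LT, with Elk3 (0.77, SE 0.143) and Mrtfa (0.46, SE 0.13) in front (median -0.04 and 0.35). Among 9 CREB family members and coactivators 2 were lower in 1% FCS, Crtc1 and Crtc3, and 2 were higher and 2 lower in 1% FCS LT, led by Crem (1.07, SE 0.209) and Creb3 (-0.66, SE 0.169), at medians of 0.03 and -0.15. Of 18 genes of the p38 and JNK cascades, 9 were higher and 3 lower after 10 days and 6 and 2 after 12 weeks (median 0.24 and 0.19).

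Other subunits and targets also changed in both directions. Of 13 other AP-1 and ATF subunits tested, 5 stood higher and 2 lower in Ctsd-/- cells after 10 days, among them Maff (1.09, SE 0.221), and 3 higher and 2 lower after 12 weeks (median 0.30 and 0.27). Of 20 known AP-1 target genes 9 were higher and 8 lower in 1% FCS, and 10 were higher and 1 lower in 1% FCS LT, among them the matrix metalloproteinase Mmp3 (5.48, SE 0.834), at medians of 0.60 and 0.76. Of 28 MYC target genes 7 were higher and 3 lower in 1% FCS and 3 were higher and 5 lower in 1% FCS LT, while Myc itself was not called (median 0.08 and -0.17). Of 13 MYC partners and MAX network genes 2 were higher and 7 lower after 10 days and 4 were lower after 12 weeks (median -0.28 and -0.11). Mxd1, a repressor that competes for MAX, was among the latter (log2 FC -3.18, SE 0.117). Of 10 decay factors of AU-rich mRNAs, which shorten the life of Fos and Myc transcripts among others, 4 were higher and 3 lower after 10 days and 2 and 2 after 12 weeks (median 0.07 and -0.03). Zc3h12a, an RNase, was lower in both (-1.14, SE 0.252, and -0.999, SE 0.252). Of 16 proliferation genes, 3 were lower in 1% FCS Ctsd-/- cells, with Top2a at -1.24 (SE 0.302) and Mki67 at -1.10 (SE 0.318), and 1, Pcna, was higher in 1% FCS LT (0.53, SE 0.17), at medians of -0.49 and -0.01.

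Likeness over the 12 cell samples was read as the root mean square difference of centred log2 CPM. The values were not scaled by their spread, so genes that vary little come out close, and likeness is not read as shared regulation. Closest to Egr1 were Zfp976 (0.365) and Cyp2j9 (0.367), and closest to Fos were Cul9 (0.423) and Cdh24 (0.426). Fosb was closest to Dbndd1 (0.308) and Samd3 (0.361), Atf3 to Amz1 (0.294) and Fgf21 (0.326), and Jun to Plekhg2 (0.424) and Prr32 (0.442). The smallest differences were those of Myc with Rpl28-ps1 (0.133) and Rpl31-ps8 (0.149), pseudogenes of ribosomal proteins, followed by Ier2 with Slc29a3 (0.16) and Junb with Itpkc (0.17). No member was the closest gene of another member.

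In tumors the question was whether loss of CTSD in the mammary epithelium changed these genes at 18 weeks. None of the 10 was called by edgeR at an adjusted p under 0.05, as was 0.00537% of all 18617 genes, and none reached an unadjusted p under 0.05, which 8.94% of all genes did. DESeq2 and limma-voom, which called 265 genes and 2 genes in all, called none of the 10 either. For none of the 10 were the groups apart, against 4.15% of all genes. The members' median absolute log2 FC was 0.15, and that of all genes 0.31. Lowest in p was Atf3, at 26.7, 31.8, 23.1 and 54.0 CPM in control tumors and at 31.6, 15.5, 26.5 and 16.0 CPM in MMTV-cre;Ctsd-/- tumors (log2 FC -0.60, SE 0.329, adjusted p = 0.595). Control tumor 4 was the highest, the groups overlapped, and without that tumor the log2 FC was -0.28 (adjusted p = 0.94).

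**Figure D4:**
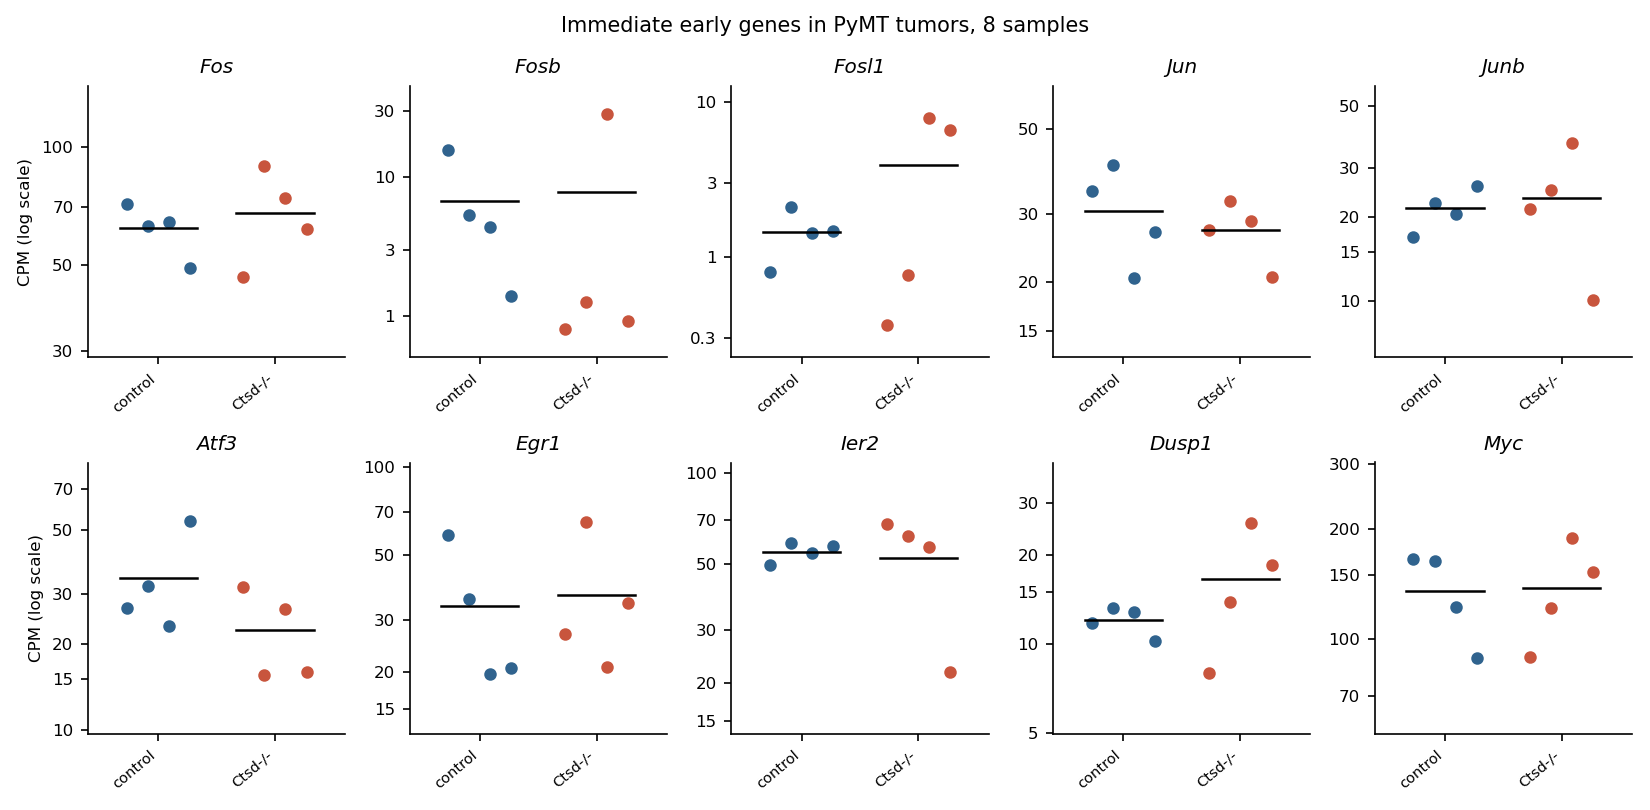
Level of each immediate early gene in the 8 tumors, as TMM-scaled CPM on a log axis, with control tumors in blue, MMTV-cre;Ctsd-/- tumors in red and a black line at the mean of 4 tumors. The groups overlap for all 10 genes, and Fosb ranges from 0.805 to 28.6 CPM within the MMTV-cre;Ctsd-/- tumors.

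The tumors differed more among themselves than between genotypes. Fosb was at 15.7, 5.39, 4.36 and 1.40 CPM in control tumors and at 0.805, 1.26, 28.6 and 0.913 CPM in MMTV-cre;Ctsd-/- tumors. A single tumor carried the Fosb signal of the deficient group, and without it the log2 FC turned from 0.23 (SE 1.15, adjusted p = 0.957) to -2.76 (adjusted p = 0.769). Egr1 was at 58.5, 35.3, 19.7 and 20.6 CPM in control and at 26.8, 64.6, 20.8 and 34.5 CPM in MMTV-cre;Ctsd-/- tumors, each group with 1 tumor well above the rest (log2 FC 0.13, SE 0.427). Fos was more even, from 48.9 to 71.4 CPM in control and from 46.4 to 89.5 CPM in MMTV-cre;Ctsd-/- tumors (0.13, SE 0.231).

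Dusp1 was within 10.2 to 13.3 CPM in control tumors and at 7.94, 13.8, 25.8 and 18.6 CPM in MMTV-cre;Ctsd-/- tumors (log2 FC 0.46, SE 0.324, adjusted p = 0.661), and without the highest, tumor 3, the log2 FC was 0.16 (adjusted p = 0.933). Ier2 was within 49.6 to 58.8 CPM in control tumors, and MMTV-cre;Ctsd-/- tumor 4, at 21.7 CPM, lay well below the other 3 of its group (56.8 to 68.0 CPM). Jun (20.5 to 40.3 CPM), Junb (10.1 to 36.9 CPM) and Myc (88.8 to 189 CPM) had wholly or largely shared ranges. MMTV-cre;Ctsd-/- tumor 3 was the highest of the 8 tumors for 5 of the 10 members, Fosb, Fosl1, Junb, Dusp1 and Myc, and tumor 1 of the same group the lowest for 4.

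Fosl1 (chr19:5447547-5455946) shares 57.2% of its exon bases with Ccdc85b on the opposite strand in GENCODE M21. The tumor counts do not separate strands, so that reads of Fosl1 and Ccdc85b cannot be told apart in its tumor values, which ran from 0.799 to 2.10 CPM in control and from 0.365 to 7.94 CPM in MMTV-cre;Ctsd-/- tumors. In cells, where strands were separated, the opposite strand of Fosl1 held 0.682 to 1.42 CPM. Jun shares 7.3% of its exon bases with Junos, Junb 7.5% with Prdx2 and Dusp1 0.3% with Ergic1. In cells the reverse-stranded count of Jun was 113.5 to 119.1% of its unstranded count. Unstranded counts, as used in tumors, thus leave out part of the Jun reads.

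Adipocyte markers differed between the tumor groups at an unadjusted p only, and LR number and genotype cannot be told apart there. All 7 (Adipoq, Fabp4, Plin1, Cidec, Lep, Ucp1 and Cidea) had an unadjusted p under 0.05, none was called at an adjusted p under 0.05, and their sum was 216 to 2159 CPM in control and 1088 to 10870 CPM in MMTV-cre;Ctsd-/- tumors. Endothelial markers, 3 of 5 at that unadjusted p, summed to 45.04 to 94.4 CPM in control and 60.8 to 234 CPM in MMTV-cre;Ctsd-/- tumors. Skeletal muscle markers and B and plasma cell markers had median log2 FC of -2.19 and 1.28, with 0 of 5 in each list at that unadjusted p. The part of these markers in the immediate early gene values was not tested. Tumor and cell levels were scaled separately and their libraries were made from different amounts of RNA, so that they were not compared.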

How the data were processed

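RNA of 8 tumors and 12 cell samples was sequenced by the authors on an Illumina HiSeq4000, trimmed with Trimmomatic and mapped to GRCm38/mm10 with STAR. The deposited files hold raw read counts per gene with 1 column for each strand setting. The annotation behind the counts and the library kit are not given in the sources used here. On the opposite strand lay 97.1 to 97.3% of the strand-assigned counts in cells and 52.8 to 53.7% in tumors, so that the reverse-stranded column was used for cells and the unstranded column for tumors. Rows that name no gene were left out of library sizes and tests. Counted without regard to strand, reads that fell on more than 1 gene make up 3.30 to 3.47% of the total in cells and 7.11 to 15.6% in tumors. In tumors these reads are in no gene count. The reverse-stranded counts of cells hold some of them, and the share left out there was not computed. Of the 45706 gene identifiers, 45143 were named with GENCODE M21.

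Counts were filtered with filterByExpr, scaled by TMM and tested with edgeR's quasi-likelihood F-test (edgeR 4.0.16, R 4.3.3) in a fit over the 8 tumors and another over the 12 cell samples, with p-values adjusted by Benjamini-Hochberg over every gene in the fit and a call at an adjusted p under 0.05. The estimated dispersion corresponded to a biological coefficient of variation of 0.429 for tumors and 0.217 for cells. A difference is given as log2 fold change (log2 FC) with its SE. For edgeR the SE was derived as the absolute log2 FC over the square root of the F statistic, which is unsteady near 0. Groups that do not overlap have all samples of one above all of the other. Alternatives were DESeq2 1.42.0, limma-voom (limma 3.58.1), other size factors, other filters, the unstranded counts in cells, the replicate number as a block, fits of 2 groups, the samples that share an LR number, each sample left out in turn, and the thresholds of the study. The study tested with limma; here counts allowed edgeR as the main test. The tests across genes were tried on simulated data. No pair of replicate libraries differed by as little as sampling noise.

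The 10 members, the gene lists and the tests were chosen with earlier results of these data known. From each list, up to 2 genes with the widest log2 FC among those called and without overlap were named, and for each member the 2 genes closest in pattern; where a group was near 0 CPM, levels are given in place of a fold change. Gene counts were read without regard to transcripts, so that isoforms of Atf3 or Fosb are not separated. The study describes the 3 replicates of a cell group as independent experiments, each on the same line, so that the p-values measure the spread between experiments on 1 line.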

Additional observations from a re-analysis of the deposited data

Results flagged for a closer look

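Fosb in MMTV-cre;Ctsd-/- tumor 3 was at 28.62 CPM, while the other 3 tumors of its group were between 0.805 and 1.26 CPM. The gap to the nearest tumor was 0.984 of the range of the group, above Dixon's 95% critical value for a group of 4. It was the single such value among the 20 gene and tumor group combinations examined, of which chance flags about 1 in 20.

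The genotype difference changed with culture time by the test of that difference for 3 members, at 1.605 for Jun, -0.926 for Junb and -1.71 for Atf3 on the log2 scale (adjusted p = 0.0281, 0.0145 and 0.0455 by edgeR's quasi-likelihood test). In Ctsd-/- cells none of these genes was called between culture times, while Jun, Junb and Atf3 were each called in Ctsd+/+ cells, whose 1% FCS group also carried the fibroblast markers. The part of these markers in the 3 values was not tested.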

How the results depend on the processing

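Of the 18 member differences called, the 285 values under other settings kept direction throughout, 246 of them also past the threshold and 39 not. Of the 42 not called, 655 values under other settings were computed, of which 597 kept direction and side, 13 passed the threshold in the same direction and 45 turned direction. By number of members called, the thresholds of the study gave 1 in tumors (Atf3, unadjusted p under 0.1) in place of 0. For culture time in Ctsd-/- cells, the 8 samples that share an LR number gave 2 (Jun and Atf3) and the replicate block gave 1 (Jun), in place of 0. With 1 sample left out, counts ranged from 0 to 0 in tumors, 5 to 6 after 10 days, 3 to 6 after 12 weeks, 2 to 3 for culture time in Ctsd+/+ cells, 0 to 1 for culture time in Ctsd-/- cells and 1 to 4 in the corrected comparison. Of the values that turned direction, 1 passed the threshold, Fos in the corrected comparison without replicate 1 of the 1% FCS Ctsd+/+ cells. In tumors Fosb was at -1.14 under limma-voom. For culture time in Ctsd+/+ cells the 8 samples gave Fos 0.143 and Fosl1 -0.169, and in Ctsd-/- cells Fosl1 -0.025. In the corrected comparison Fos was at -0.316 under limma-voom and -0.825 in the 8 samples, where Egr1 was at 0.068. With 1 tumor left out, the ranges were -0.03 to 0.281 for Fos, -2.756 to 1.084 for Fosb, -0.192 to 0.367 for Junb, -0.296 to 0.541 for Egr1, -0.228 to 0.183 for Ier2 and -0.155 to 0.203 for Myc. With 1 cell sample left out, they were -0.304 to 0.582 for Atf3 between genotypes after 12 weeks. For culture time in Ctsd+/+ cells they were -1.139 to 0.151 for Fos, -0.179 to 0.359 for Fosl1 and -0.16 to 0.126 for Ier2, and in Ctsd-/- cells -0.008 to 0.459 for Fosl1, -0.227 to 0.204 for Dusp1 and -0.363 to 0.016 for Myc. In the corrected comparison they were -0.943 to 0.339 for Fos, -0.147 to 0.419 for Fosl1 and -0.203 to 0.234 for Egr1. Beside fewer samples, the cause was not tested.

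The replicate numbers were checked for pairing by the correlation of deviations from the group means between samples with the same number. It was 0.09997 to 0.362 between the genotypes in 1% FCS, with each sample closest to its own number. Between the culture times of Ctsd-/- cells it was 0.0766 to 0.192, again with each sample closest to its own number. It was 0.001807 to 0.119 in 1% FCS LT and -0.303 to -0.00755 in tumors. The main fits did not pair samples by number. Where each sample was closest to its own number pairing is not excluded, and the replicate block gives values under that pairing. The replicate block turned Fosb in tumors to -1.207 and Fos in the corrected comparison to -0.139 and changed the number of members called only in culture time in Ctsd-/- cells, where Jun was at -1.053 (adjusted p = 0.0298).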
